A study of Mus musculus with 12 samples.

Results

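BATF binding was examined at 9 genes encoding transcription factors that direct or mark helper T cell lineages: *Rora*, *Ahr*, *Spi1*, *Prdm1*, *Bcl6*, *Tbx21*, *Eomes*, *Foxp3* and *Gata3*. They were 9 of the 21774 protein-coding genes of the mouse RefSeq annotation, and were chosen by name for the roles of the factors they encode. For each gene, the BATF peaks whose summit (the base with the most fragments) lay in the gene body or within 100 kb of it on GRCm38 (mm10) were collected, and this span is called the window of the gene. BATF was measured by chromatin immunoprecipitation sequencing in wild-type C57BL6/J cells, in 2 Th9 libraries (1 and 2) and 2 Th17 libraries (3 and 4), each matched by number to an input library and an IgG library, 12 samples in all. Naive CD4+CD62L+ T cells from spleen and lymph nodes were activated with anti-CD3 and anti-CD28 and analysed on day 5, with no restimulation. Th9 cells received IL-4, IL-2, TGF-β1 and anti-IFNγ. Th17 cells received IL-6, TGF-β1, IL-23, IL-1β, anti-IFNγ, anti-IL-4 and anti-IL-2. Nothing in the descriptions of the samples says that libraries of the same cell type came from separate animals or cultures, so any p measures only the spread between libraries, which may be technical. The lists hold binding and no expression, so the cell type labels could not be checked against the products of marker genes. Near those genes, the window of *Il9*, the signature cytokine of Th9 cells, held 1, 2, 0 and 0 peaks in libraries 1 to 4, and those of the Th17 cytokine genes *Il17a* and *Il17f* each held 1, 0, 1 and 1, which were the same peaks, since the windows of these neighbouring genes overlap. The windows of the Th17 receptor genes *Il23r* and *Ccr6* held 1, 0, 1 and 0 and 0, 0, 1 and 0 peaks.

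Naive helper T cells take on a lineage under the cytokines they meet, and each lineage depends on factors that open its own cytokine genes and restrain those of other lineages. T-bet serves Th1 cells, GATA3 Th2 cells, RORα together with a related nuclear receptor Th17 cells, PU.1 Th9 cells, FOXP3 regulatory T cells and BCL6 follicular helper cells. BATF is a basic leucine zipper (bZIP) protein that pairs with JUN proteins on AP-1 sites and, with IRF4 or IRF8, on composite sites that join an AP-1 sequence to an IRF sequence.

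Peaks near the lineage factor genes were few, and each came from 1 library. Th9 library 1 had 4 peaks in the 9 windows, of 1709 peaks in its list, and Th17 library 3 had 5 of 4111. Th9 library 2 had 0 of 241, and Th17 library 4 had 0 of 199. The 9 peaks thus all came from the longer list of each cell type, and the regions they formed numbered 4 for Th9 and 5 for Th17 cells, with 0 shared by overlap. Of the 5873 regions that the 4 lists formed when merged, 278 (4.73%) were called in at least 2 libraries, and 0 of the 9 regions in the windows were among them. Regions shared by Th9 and Th17 cells are among those 278, but so are 151 that recurred within Th9 or within Th17 cells. The regions common to the 2 cell types were not counted directly. Th9 cells had 1878 regions and Th17 cells 4206, and the merged lists had 5873. Most regions of each cell type thus did not overlap the other. Since sharing was uncommon in the whole lists, 0 of 9 does not show less of it near these genes.

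A peak was present for 3 of the 9 genes in Th9 library 1 (*Prdm1*, *Ahr* and *Eomes*), where 14.8% of all protein-coding genes had a peak by the same rule. In Th17 library 3 it was 4 of 9 (*Rora*, *Ahr*, *Tbx21* and *Foxp3*), against 34.0% of all genes. Library 2 had 0 of 9 against 2.77%, and library 4 had 0 of 9 against 2.1%. Taking either library of a cell type, 3 of 9 genes had a Th9 peak (16.6% of all genes) and 4 of 9 a Th17 peak (34.5%). *Ahr* alone had peaks in both cell types, which was 1 of 9 against 7.92% of all genes, and 6 of 9 had a peak in any library against 43.3%. *Gata3*, *Spi1* and *Bcl6* had 0 peaks in their windows in all 4 libraries, which shows only that no site there passed the threshold of the lists. The lists differ in length, and with only the 199 peaks of highest −log10 q in each library, 2 of the 9 genes had a peak in library 1 (2.07% of all genes by that rule) and 0 in library 3 (2.44%). With each peak assigned instead to the gene with the nearest start, 4 of the 9 genes had a peak in library 1 (6.56% of all genes), 1 in library 2 (1.02%), 4 in library 3 (14.0%) and 1 in library 4 (0.873%). Which genes had a peak thus depended on the rule; the differences from all genes were not tested, since the 9 genes were chosen with earlier results of these data known.

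**Figure D1:**
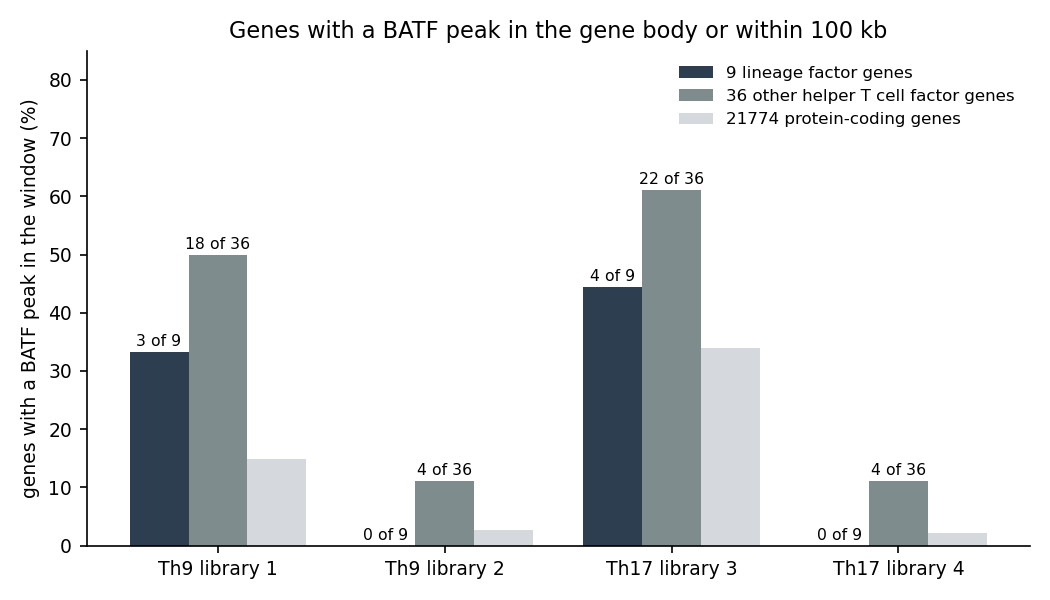
Percent of genes with a BATF peak in the gene body or within 100 kb, in each of the 4 libraries, for the 9 lineage factor genes, 36 other helper T cell factor genes and all 21774 protein-coding genes. The bars of the 9 genes stand at 3 and 4 genes in libraries 1 and 3 and at 0 in libraries 2 and 4.

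The 9 windows together covered 2.79 Mb, or 0.102% of the 2726 Mb of assembled chromosomes. They held 1.43 peaks per Mb in library 1, where the whole genome held 0.627, and 1.79 per Mb in library 3, where the genome held 1.51. The share of a library's peaks that lay in the windows was 0.234% (exact 95% binomial interval 0.0638 to 0.598) in library 1 and 0.122% (0.0395 to 0.284) in library 3. It was 0% in libraries 2 and 4, with upper limits of 1.52% and 1.84%, so these shorter lists do not exclude shares as high as those of the longer ones. The intervals of libraries 1 and 3 overlap, and the values within a cell type lay further apart than the means of the cell types. The number of peaks was 2 ± 2.83 in Th9 and 2.5 ± 3.54 in Th17 cells (SD, n = 2 libraries each), a difference of 0.5 (exact two-sided permutation test, p = 1). The share was 0.117% ± 0.166 in Th9 and 0.0608% ± 0.0860 in Th17 cells (exact two-sided permutation test, n = 2 each, p = 1). With 2 libraries against 2 the smallest p possible is 0.33, so no difference between the cell types could pass a threshold. Its direction depended on single libraries: the difference in peaks was -1.5 without library 2 and -2 without library 3, and that in share was 0.0608 percentage points without library 1 and 0.00460 without library 4. The difference in peaks was also below 0 with the nearest start in place of the window (-0.5) and with the top 199 peaks (-1.5), and that in share was 0.227 percentage points with 200 kb on each side. The difference in share was -0.0562 percentage points in the main analysis and -0.754 with the top 199 peaks. With a minimum −log10 q of 5 it was -0.172.

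The depth behind each peak was recovered from the fold enrichment (the ratio of fragments at the summit to the background, with 1 added to both) and its −log10 p, which together fix a whole number of fragments. For 6 of the 9 peaks the background was the lowest of the list. The 9 peaks rested on 8 to 17 fragments, with a median of 12; the Poisson intervals given with them cover counting error only, and duplicate fragments were kept. The median over the whole list was 10 in library 1, where the peaks in the windows had 17, 16, 14 and 8 fragments. It was 9 in library 3, where they had 16, 12, 10, 10 and 8. The −log10 q of the 9 peaks, which has a floor of 2 set by the q threshold of 0.01, ran from 2.29 to 11.7.

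**Figure D2:**
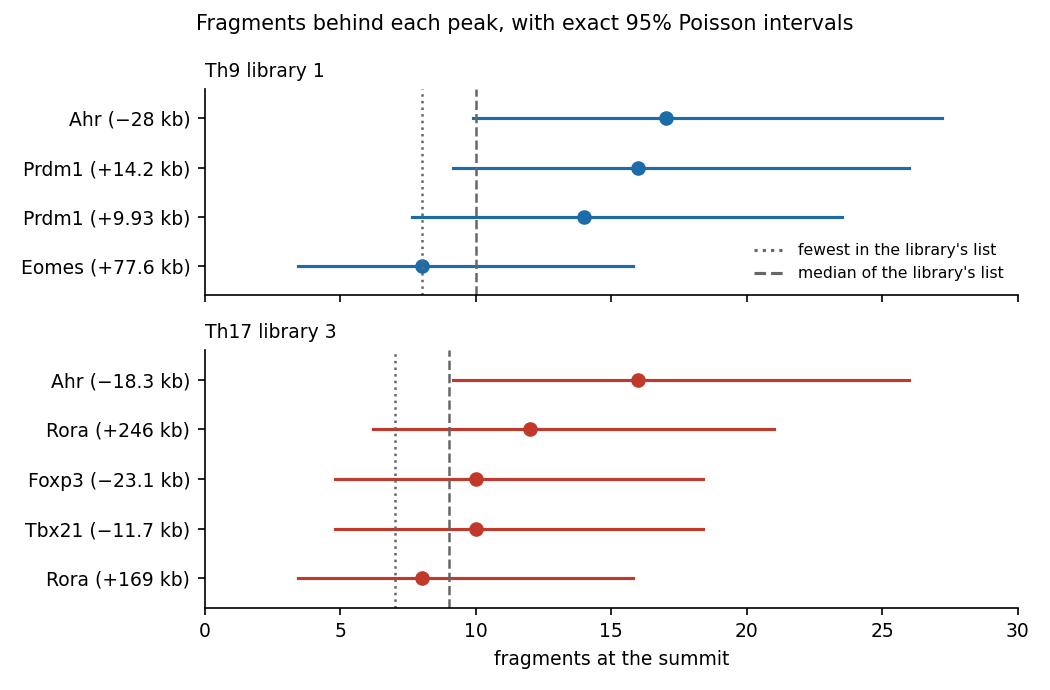
Fragments at the summit of each of the 9 peaks, with exact 95% Poisson intervals, against the fewest and the median fragments of all peaks in the same library. Peaks are named by gene and distance from its nearest annotated start. The *Ahr* peaks stand highest in both libraries, at 17 and 16 fragments, and the *Eomes* peak is at the lowest number of its list, 8.

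*Ahr* encodes the aryl hydrocarbon receptor, a ligand-activated factor of the basic helix-loop-helix family that promotes IL-22 production in Th17 cells. It lies on the minus strand (chr12:35497979-35534989) and had 1, 0, 1 and 0 peaks in libraries 1 to 4. The Th9 peak of library 1 lay 28.0 kb upstream of the start, with a fold enrichment of 9.06, a −log10 q of 10.7 and 17 fragments (95% interval 9.90 to 27.2). The Th17 peak of library 3 lay 18.3 kb upstream, with a fold enrichment of 9.60, a −log10 q of 11.7 and 16 fragments (9.15 to 26.0). These were the highest −log10 q values among the 9 peaks, and only 4.51% and 6.28% of the peaks in their own lists had a higher one. Both lay between genes, and both were listed against input alone and against IgG alone. Although the gene had a peak in each cell type, the summits stood 9.71 kb apart, so the sites called in the 2 cell types did not overlap. Each held the AP-1 sequence TGACTCA, which may stand on either strand and then reads TGAGTCA. The sequences of both peaks are given because this was the gene with peaks in both cell types; the Th9 peak was added after its values were seen. They are the plus strand of GRCm38.p6 from RefSeq, 5′ to 3′, with AP-1 sites in capitals.
Ahr Th9 peak, chr12:35562924-35563115: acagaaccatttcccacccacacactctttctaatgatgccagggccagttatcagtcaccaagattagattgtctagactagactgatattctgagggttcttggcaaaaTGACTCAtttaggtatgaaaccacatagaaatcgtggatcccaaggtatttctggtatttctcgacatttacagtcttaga
Ahr Th17 peak, chr12:35553245-35553435: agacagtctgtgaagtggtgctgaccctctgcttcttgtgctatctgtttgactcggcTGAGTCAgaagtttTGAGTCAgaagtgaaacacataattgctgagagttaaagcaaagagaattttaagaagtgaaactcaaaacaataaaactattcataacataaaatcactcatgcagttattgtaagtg
The Th9 peak held 1 AP-1 site, centred 11 bases from the summit, and the Th17 peak held 2 sites in the same orientation with starts 14 bases apart. At least 2 AP-1 sites within 100 bp of the summit were found in 2.24% of all Th9 regions and 3.33% of all Th17 regions. Peaks with more fragments held a site more often: among those with 16 or 17 fragments, as at *Ahr*, at least 1 AP-1 site was found in 42.2% (exact 95% binomial interval 29.9 to 55.2) in library 1 and 49.3% (40.8 to 57.8) in library 3, and at least 2 in 9.38% and 11.3%. The Th9 peak also held a GATA motif (AGATAA or TGATAA) and a RUNX motif (TGTGGTT), centred -52 and 29 bases from the summit, where negative distances lie towards lower coordinates.

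*Rora*, the gene of the nuclear receptor RORα, which takes part in Th17 differentiation, lies on the plus strand (chr9:68653404-69388246) and had 0, 0, 2 and 0 peaks. Its window of 935 kb was the longest among the 9, the others being 208 to 291 kb and the median of all genes 217 kb. Of the 113 protein-coding genes with a window at least as long, 50.4%, 6.19%, 71.7% and 2.65% had a peak in libraries 1 to 4, so peaks in a window of this length were common in the longer lists only. The higher peak lay in intron 1, 246 kb downstream of the nearest start, with a fold enrichment of 6.66, a −log10 q of 6.09 and 12 fragments (6.2 to 21). It was listed against each control and ranked 945 of 4111. The other (chr9:69458593-69458783) lay 70.5 kb past the end of the gene, inside intron 1 of *Anxa2*, whose start was 5.05 kb away. It had a fold enrichment of 5.08, a −log10 q of 3.32 and 8 fragments (3.45 to 15.8), and it was not listed against IgG alone. Neither held an AP-1 site within 100 bp of the summit, although the window of *Rora* contained 170 of them. The intron 1 peak is shown as the higher one of the gene, from the plus strand of GRCm38.p6, with no motif to capitalise.
Rora Th17 peak, chr9:68899309-68899521: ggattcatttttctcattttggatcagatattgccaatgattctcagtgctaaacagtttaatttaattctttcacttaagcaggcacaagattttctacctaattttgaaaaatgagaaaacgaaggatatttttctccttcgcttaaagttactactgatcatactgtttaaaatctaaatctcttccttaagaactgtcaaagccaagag

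*Prdm1* encodes Blimp-1, a repressor that drives terminal differentiation and is opposed by BCL6. The gene lies on the minus strand (chr10:44437174-44528558) and had 2, 0, 0 and 0 peaks. Both lay in introns in Th9 library 1. The peak in intron 4 stood 14.2 kb downstream of the nearest start, with a fold enrichment of 7.59, a −log10 q of 8.27 and 16 fragments (9.15 to 26.0). The peak in intron 3 (chr10:44448679-44448846) stood 9.93 kb downstream, with a fold enrichment of 7.55, a −log10 q of 7.43 and 14 fragments (7.65 to 23.5). They ranked 164 and 182 of 1709 and lay 4.28 kb apart, the closest pair of summits among the 9 peaks. The intron 3 peak was not listed against input alone. The intron 4 peak held no complete AP-1 site within 100 bp of the summit. It held the composite bZIP:IRF sequence GAAATGACT on the minus strand, centred 54 bases from the summit, and was the only one of the 9 with a composite site. It is printed from the plus strand of GRCm38.p6 with that site in capitals.
Prdm1 Th9 peak, chr10:44444422-44444638: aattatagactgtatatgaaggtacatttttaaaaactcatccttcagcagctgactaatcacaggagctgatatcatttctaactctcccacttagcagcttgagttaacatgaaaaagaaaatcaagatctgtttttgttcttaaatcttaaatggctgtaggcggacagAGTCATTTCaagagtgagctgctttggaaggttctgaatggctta
No peak of the Th17 libraries lay in the window. Library 3 had its nearest summit 272 kb from the gene and library 4 had it 439 kb away.

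*Bcl6* (chr16:23965050-23988866, minus strand), the gene of the follicular helper factor that counters Blimp-1, had 0 peaks in each library. The nearest summits to the gene body were 539, 4193, 239 and 388 kb away in libraries 1 to 4. *Spi1* (chr2:91082374-91115759, plus strand), which encodes the ETS factor PU.1, an activator of IL-9 in Th9 cells, also had 0 in each, and its nearest summits were 683, 430, 430 and 6161 kb away. Neither gene thus had a listed site in its window in either cell type. Over all protein-coding genes the median distance was 506, 3627, 183 and 5212 kb, so both genes were further from a summit than the median gene in libraries 1 and 3, *Spi1* was nearer in library 2 and further in library 4, and *Bcl6* was further in library 2 and nearer in library 4. The windows of *Bcl6* and *Spi1* contained 39 and 42 AP-1 sites, in the range of the 36 to 170 found in the 9 windows.

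*Tbx21* (chr11:97098007-97115331, minus strand), the gene of the T-box factor T-bet, had 0, 0, 1 and 0 peaks. The related T-box gene *Eomes* (chr9:118478186-118486132, plus strand), best known from cytotoxic T cells, had 1, 0, 0 and 0. The *Tbx21* peak of Th17 library 3 lay between genes, 11.7 kb upstream of the start, with a fold enrichment of 6.21, a −log10 q of 5.02 and 10 fragments (4.80 to 18.4). It was listed against each control and held an AP-1 site centred -17 bases from the summit. Among the peaks of library 3 with 8 to 10 fragments, 11.2% (exact 95% binomial interval 9.87 to 12.7) had an AP-1 site, against 38.1% (34.8 to 41.5) of those with 12 to 17, so the *Tbx21* peak was of a height at which the motif was uncommon. The peak also held a RUNX motif and the AHR core GCGTG, centred -31 and 54 bases from the summit. The *Eomes* peak of Th9 library 1 lay 69.7 kb past the end of the gene, inside exon 15 of *Golga4*. Its fold enrichment was 4.15, its −log10 q 2.29 and its fragments 8 (3.45 to 15.8), and 97.8% of the peaks in the list had a higher −log10 q. It was not listed against IgG alone and held none of the motifs searched. Its fold enrichment and −log10 q were the lowest of the 9 peaks. Both are printed from the plus strand of GRCm38.p6 to set the upstream AP-1 peak beside the exonic peak without one; capitals mark the AP-1 site.
Tbx21 Th17 peak, chr11:97126933-97127131: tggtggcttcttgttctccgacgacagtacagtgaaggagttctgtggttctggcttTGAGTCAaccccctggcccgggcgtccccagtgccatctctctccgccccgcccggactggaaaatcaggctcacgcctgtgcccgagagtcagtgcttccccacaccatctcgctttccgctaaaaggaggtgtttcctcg
Eomes Th9 peak, chr9:118555796-118555962: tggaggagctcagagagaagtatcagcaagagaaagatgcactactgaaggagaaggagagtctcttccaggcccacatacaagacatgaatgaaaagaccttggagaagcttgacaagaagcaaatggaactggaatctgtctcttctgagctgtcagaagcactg

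*Foxp3* (chrX:7579676-7595243, plus strand), the X-linked gene of the factor that defines regulatory T cells, had 0, 0, 1 and 0 peaks. The peak of Th17 library 3 lay 23.1 kb upstream, between genes, and the nearest protein-coding start was that of *Ppp1r3f*, 17.7 kb away. Its fold enrichment, −log10 q and fragments were 6.21, 5.02 and 10 (4.80 to 18.4), the same as at *Tbx21*, since both stood at 10 fragments over the lowest background of the list. It was not listed against input alone. No AP-1 or composite site lay within 100 bp of the summit, and a RUNX motif was centred -41 bases from it. The summit stood at the lower edge of the called peak, so that motif lies outside the printed sequence. The peak is printed from the plus strand of GRCm38.p6, with no AP-1 or composite site to capitalise.
Foxp3 Th17 peak, chrX:7556539-7556714: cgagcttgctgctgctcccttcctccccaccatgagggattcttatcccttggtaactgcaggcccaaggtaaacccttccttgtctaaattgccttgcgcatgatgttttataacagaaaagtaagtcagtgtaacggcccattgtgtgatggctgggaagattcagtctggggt

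*Gata3* (chr2:9857078-9887953, minus strand), the gene of the Th2 factor, which also acts earlier in T cell development, had 0 peaks in each library. A Th17 peak of library 3 stood just outside its window, 105 kb upstream inside an intron of *Taf3*, with a fold enrichment of 4.52, a −log10 q of 2.60 and 7 fragments. The nearest summits to the gene body were 198, 269, 105 and 1729 kb away in libraries 1 to 4. *Ahr* was the other gene with summits just beyond the edge, at 106 kb upstream in both Th17 libraries, with −log10 q values of 9.30 and 9.11 in libraries 3 and 4 and 15 fragments in each. The count of library 4 thus depended on the limit of 100 kb, and with 200 kb on each side it had a peak for 1 of the 9 genes, *Ahr*, and for 3.83% of all protein-coding genes.

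**Figure D3:**
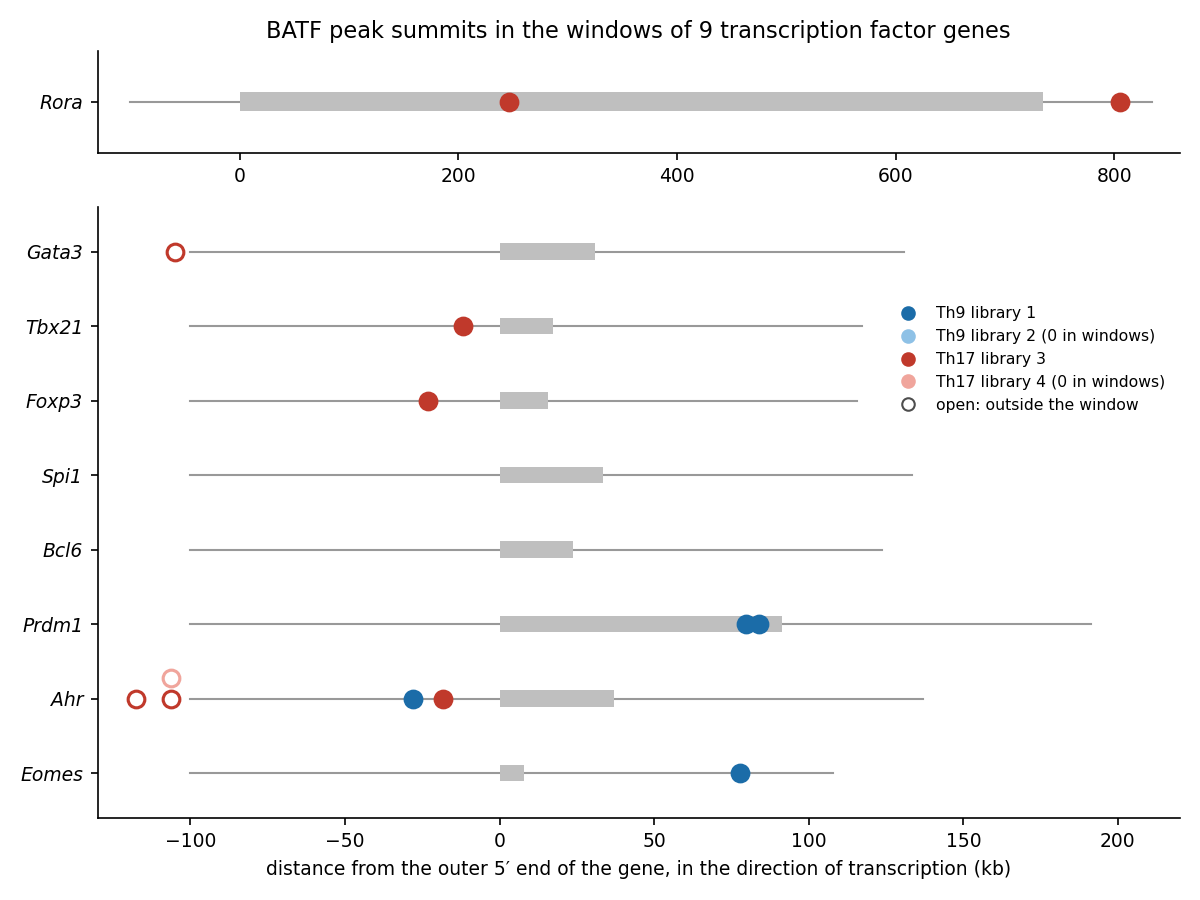
Summits of BATF peaks along the 9 genes, drawn in the direction of transcription from the outer 5′ end of each gene (kb), with the gene as a bar, the window as a line and a separate scale for *Rora*. Filled points are the 9 peaks in the windows (4 of library 1, 5 of library 3); open points lie outside, where *Ahr* had 1 site at 106 kb called in libraries 3 and 4.

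**Figure D4:**
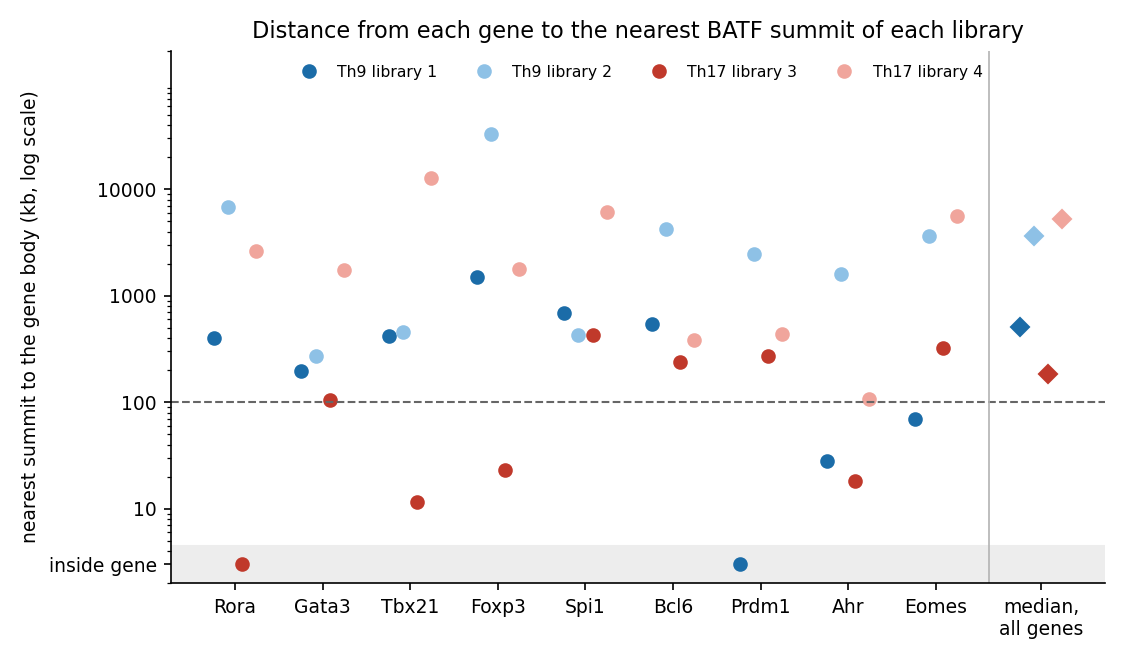
Distance from the body of each gene to the nearest summit of each library (kb, log scale), with the window limit of 100 kb as a dashed line and the medians of all protein-coding genes as diamonds. Points of libraries 2 and 4 all lie above the line, the nearest being *Ahr* in library 4 at 106 kb.

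The 9 peaks had little of their position in common. The nearest protein-coding start belonged to the lineage factor gene itself for 6 of them, 3 lay in its introns, and 1 lay within 10 kb of one of its starts. The exceptions to the nearest start were the distal *Rora* peak and the peaks of *Foxp3* and *Eomes*. Against the single controls, 7 of the 9 peaks were listed with input alone and 7 with IgG alone. Within the windows of the 9 genes, the single-control lists added 0 peaks that the combined list lacked. The *Prdm1* intron 3 and *Foxp3* peaks were those lost with input alone, and the distal *Rora* and the *Eomes* peaks those lost with IgG alone. Repeat sequence made up a median of 12% of the 9 peaks, beside 13.1% of all Th9 regions and 13.3% of all Th17 regions.

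An AP-1 site within 100 bp of the summit was found in 3 of the 9 peaks (33.3%, exact 95% binomial interval 7.49 to 70.1), beside 15.7% of the 1878 Th9 regions and 19.1% of the 4206 Th17 regions. The composite site (TTTC, 4 bases, then TGACT or TGAGT; or GAAATGACT or GAAATGAGT), which overlaps AP-1 in its TGACT or TGAGT, was found in 1 of 9 (11.1%, 0.281 to 48.2), beside 6.50% and 5.85%. The intervals are wide and contain the shares of all regions, so with 9 peaks a difference could be neither shown nor excluded. Motifs of the lineage factors themselves stood in 0 or 1 of the 9 peaks each. A GATA motif stood in 1 of 9 peaks (0.281 to 48.2), beside 24.3% of Th9 and 22.7% of Th17 regions. The AHR core stood in 1, beside 6.55% and 6.99%, and the BCL6 and STAT sequence TTCNNNGAA in 1, the distal *Rora* peak, beside 9.90% and 8.51%. The T-box sequence TCACACC, the ROR element (A or T, any base, T, then AGGTCA or GGGTCA), the PU.1 sequence GAGGAAGT, the PRDM1 sequence AAAGTGAAA and the FOX sequence TGTTTAC were in 0 of 9 (upper limit 33.6% each), and each was in at most 3.54% of the regions of either cell type. The RUNX motif stood in 3 of 9 peaks (33.3%, 7.49 to 70.1), those of *Tbx21*, *Foxp3* and the Th9 peak of *Ahr*, beside 7.77% and 7.11%. These were 1 of 4 Th9 peaks and 2 of 5 Th17 peaks. The interval pools both cell types, and RUNX was the highest beside its background among many motifs searched. It is therefore not read as a difference, and no test was made. Motifs were searched on both strands, and a match is a description of the sequence.

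**Figure D5:**
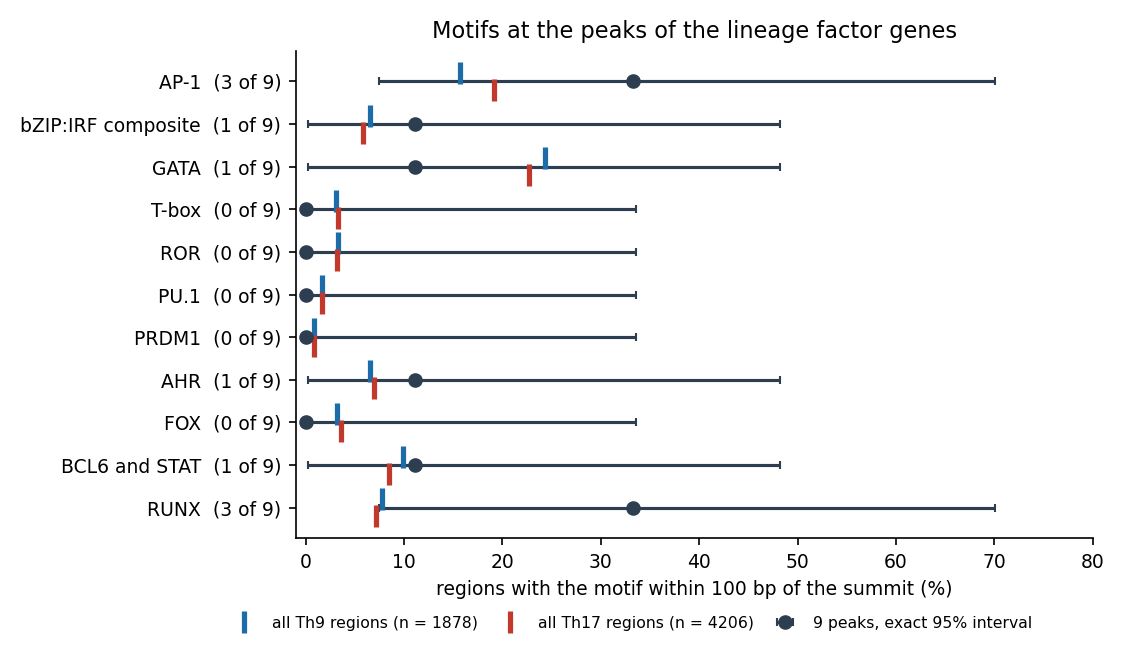
Percent of regions with each motif within 100 bp of the summit, for the 9 peaks of the lineage factor genes (points with exact 95% binomial intervals) and for all Th9 and all Th17 regions (ticks). AP-1 and RUNX were each found in 3 of the 9 peaks and the other motifs in 0 or 1.

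Among 36 other genes of helper T cell transcription factors, 18, 4, 22 and 4 had a peak in libraries 1 to 4, 13 had one in both cell types, and 30 (83.3%) had one in any library. The 6 of 9 lineage factor genes with a peak in any library stood between this share and the 43.3% of all genes; the difference was not tested. *Bach2*, *Ikzf1* and *Hif1a* were the 3 with peaks in 3 or 4 libraries, beside 0 of the 9 lineage factor genes and 1.41% of all protein-coding genes. The pattern of *Ahr*, a peak in libraries 1 and 3 and none in 2 and 4, was that of 8 of the 36 (*Maf*, *Runx1*, *Lef1*, *Foxp1*, *Stat3*, *Tox2*, *Klf2* and *Batf3*), or 22.2%, and of 1190 of all genes (5.47%). With 4 values per gene, this pattern is the one that a peak in each of the longer lists gives.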

How the data were processed

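BATF, input and IgG chromatin was sequenced from Th9 and Th17 cells. The authors aligned reads to mm10 with Bowtie2, with no version given for these ChIP-seq data in the sources used here, and they called peaks with MACS2 2.1.0 in paired-end mode at a q threshold of 0.01 with duplicates kept. The MACS2 version and the use of Trim Galore 0.4.3 come from the submitters' processing notes. For each peak the authors deposited a summit, a fold enrichment (a ratio of fragments at the summit to background), a −log10 p-value and a −log10 q-value. Each BATF library had 3 lists (against input, IgG or both), 12 in all, and the control is known only from the name of the list; the peak names inside all 12 lists read Input, so each statement on IgG rests on the name of the list. The combined lists were used, with the others as a check.

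Windows were RefSeq gene spans of GRCm38.p6 with 100 kb on each side, and the same rule over all protein-coding genes gave the background. Regions sharing 1 bp within a cell type were merged. Depth per library is unknown from the lists, and the methods of the study state only 1 approximate number of reads for all ChIP-seq libraries. Fragments at a summit were recovered as the whole number that satisfied the fold and the −log10 p within 0.002, assuming the MACS2 form with 1 added to fragments and to background; at least 98.5% of the peaks of every list had exactly 1 solution. Since duplicates were kept, all intervals cover counting error only. Motifs were searched within 100 bp of summits on both strands. Comparisons between cell types used the exact permutation test over libraries. The calculations were tested on simulated data.

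The members and lists were chosen with earlier results of these data known. All 9 genes were named with every peak, sequence was printed for the peak with the highest −log10 q of each gene and for regions called in at least 2 libraries (there were 0), and the 36 other genes were named where they had peaks in 3 or 4 libraries or the pattern of a lineage factor gene with peaks in at least 2. The second *Ahr* sequence is an addition. Alternatives were each single control, listing against each control, a minimum −log10 q of 5, windows of 20, 50 and 200 kb, the nearest start, equal numbers of top peaks, regions in both libraries, stricter overlap, 50 bp motif windows, a looser AP-1 motif, each library left out, GENCODE vM21 spans and at least 10 fragments. Python 3.11.15, numpy 2.4.6, pandas 2.3.3, scipy 1.17.1 and matplotlib 3.10.9 were used.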

Additional observations from a re-analysis of the deposited data

How the results depend on the processing

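Of 154 values recomputed under the alternatives, 129 kept their direction or stayed within 1.5 times the reported count or within the reported interval, 18 moved further, and 7 changed sign. Many of the 129 could not change or had wide limits. Counts of 0 stay 0 under any rule that only removes peaks. The AP-1 and composite shares counted as kept anywhere from 7.49% to 70.1% and from 0.281% to 48.2%. The tally is thus no measure of robustness. No difference between the cell types could pass a threshold with 2 libraries each, and with a library left out it is a value with no test. No paired analysis was possible because no library number occurs in both cell types (1 and 2 were Th9, 3 and 4 Th17). The peaks listed against each single control left 2 Th9 and 3 Th17 regions. Windows of 20 kb left 1 gene in library 1 (5.87% of all genes), 2 Th9 regions and 3 Th17 regions. Windows of 200 kb gave 1 gene in library 4 (3.83% of all genes), 10 Th17 regions and a share 0.227 percentage points higher in Th17 cells. With peaks assigned by nearest start, libraries 1 and 3 had 4 genes each (6.56% and 14.0% of all genes), libraries 2 and 4 had 1 each (1.02% and 0.873%), Th9 cells had 7 regions, and the difference in peaks (Th17 minus Th9) was -0.5. With the 199 peaks of highest −log10 q in each library, library 1 had 2 genes and library 3 had 0 (2.07% and 2.44% of all genes), Th17 cells had 0 regions and the difference in peaks was -1.5. The difference in share was then -0.754 percentage points, and with a minimum −log10 q of 5 it was -0.172. Requiring both libraries of a cell type left 0 Th9 and 0 Th17 regions, so no motif share could be given. With 50 bp around the summit the composite share was 0%. With each library left out in turn, the difference in peaks ran from -2 to 3, the difference in share from -0.173 to 0.0608 percentage points, the Th9 regions from 0 to 4, the Th17 regions from 0 to 5, and the composite share from 0% to 25%. Without library 1 there were 0 Th9 regions and without library 3 there were 0 Th17 regions, by construction; for the other changes the cause was not tested. GENCODE spans and a minimum of 10 fragments were both chosen after seeing the data, and the composite share was not recomputed with either. For the other results, GENCODE spans gave the same values. A minimum of 10 fragments gave 2, 0, 4 and 0 genes in libraries 1 to 4 (10.9%, 2.12%, 19.4% and 1.82% of all genes), 3 Th9 and 4 Th17 regions, an AP-1 share of 42.9% and a difference in share of -0.0262 percentage points, each in the same direction or within the limits above. The depth of the libraries is unknown from the lists, of which those of libraries 2 and 4 hold 241 and 199 peaks, and a site without a peak is not shown to be unbound.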

Other observations

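Beyond the windows, regions called in more than 1 library stood within 500 kb of 5 of the 9 genes, where 12.3% of all protein-coding genes had one; this distance was chosen after the values were seen, and the difference was not tested. Such regions lay near *Gata3*, *Tbx21*, *Spi1*, *Prdm1* and *Ahr*. Regions called in each of the libraries of 1 cell type stood within 500 kb of 3 of the 9 (*Gata3*, *Tbx21* and *Ahr*), against 6.29% of all genes.

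The *Gata3* region, 270 kb past the end of the gene at chr2:9587385-9587656, was called in both Th9 libraries and in 0 Th17 libraries, with a −log10 q of 13.2 and 19 fragments in library 1 and of 4.62 and 11 fragments in library 2. It was listed against each control in both, and *Gata3* was the gene with the nearest protein-coding start, 291 kb away. A region 455 kb past the end of *Tbx21* (chr11:96643175-96643451), in an intron of *Skap1*, was also called in both Th9 libraries and in 0 Th17 libraries, against each control, with −log10 q values of 15.6 and 10.2. Its nearest protein-coding start was that of *Snx11*, 134 kb away. Another region, 418 kb upstream of *Tbx21* in an intron of *Srcin1*, was called in libraries 1 and 3 with 9.59 and 9.30. It was nearest to the start of *4933428G20Rik*. The *Ahr* region at 106 kb was called in both Th17 libraries and in 0 Th9 libraries, against each control, and held no AP-1 site. A further region called in both Th17 libraries lay 298 kb upstream of *Ahr*, with an AP-1 site and −log10 q values of 10.1 and 11.9, nearest to the start of *Agr3*. A region 293 kb upstream of *Prdm1*, nearest to the start of *Prep*, was called in libraries 1 and 3. Its −log10 q values were 11.4 and 27.0, the latter above that of any of the 9 peaks in the windows.

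The region 430 kb upstream of *Spi1*, nearest to *Nup160*, was listed differently with each control. Against input and IgG together it was called in libraries 2 and 3 with −log10 q values of 26.6 and 27.2. Against input alone it was listed in all 4 libraries, with 9.60, 34.1, 44.4 and 12.6, and against IgG alone in libraries 2 and 3, with 20.6 and 18.3. Repeat sequence covered 31.1% of it, and it held no AP-1 site within 100 bp of the summit.

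The same number of fragments carried different q-values in the 4 lists. At 10 fragments over the lowest background of the list, the −log10 q was 3.82, 3.68, 5.02 and 3.78 in libraries 1 to 4. The lowest background was 0.987, 0.874, 0.771 and 0.851 fragments. The lists nevertheless ranged from 199 to 4111 peaks, and 51.3%, 32.8%, 66.2% and 24.1% of their peaks had at most 10 fragments. Of the 9 peaks in the windows, 4 were among those, at *Tbx21*, *Foxp3*, *Eomes* and the distal site of *Rora*.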
